A study of Mus musculus with 12 samples.

Results

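The renin-angiotensin genes and angiotensin-cleaving peptidases of the kidney were followed as 8 genes, Agt, Ren1, Ace, Agtr1a, Agtr1b, Enpep, Anpep and Mme, found by symbol among the 23183 symbols listed in each of 12 mouse kidney cortex libraries. Cortex of C57BL/6 mice (C57BL/6N in the study's methods) was taken on day 7 after unilateral ureteral obstruction (UUO), the tying of one ureter, which makes urine back up into that kidney, and the unobstructed contralateral kidney (CL) served as the control. The 4 groups of 3 libraries were CL and UUO kidneys of wild-type mice (WT, Acot12+/+) and CL and UUO kidneys of Acot12-/- mice, which lack the acyl-CoA thioesterase Acot12 in every tissue through a germline allele mutated with an RNA-guided endonuclease. By the study's methods the mice were males aged 6 to 7 weeks, and blockade of the angiotensin receptor with losartan was used elsewhere in the work. No sham-operated kidney was among the libraries, and a CL kidney takes over work from its obstructed partner, so each comparison of UUO with CL sets 2 kidneys of an operated animal against each other.

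Renin is released by juxtaglomerular cells of the afferent arteriole and cuts angiotensinogen, the product of Agt, into angiotensin I. Angiotensin-converting enzyme (Ace) turns angiotensin I into angiotensin II, which acts on the type 1 receptors encoded in mice by Agtr1a and Agtr1b. The brush border of the proximal tubule carries Ace together with peptidases that shorten angiotensins, namely aminopeptidase A (Enpep), which turns angiotensin II into angiotensin III, aminopeptidase N (Anpep), which turns angiotensin III into angiotensin IV, and neprilysin (Mme), which cleaves angiotensin I and many other peptides.

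In GRCm38 the members lie at chr8:124556534-124569706 (Agt, minus strand), chr1:133350510-133360325 (Ren1, plus), chr11:105967945-105989964 (Ace, plus), chr13:30336441-30382867 (Agtr1a, plus), chr3:20314473-20367177 (Agtr1b, minus), chr3:129269175-129332720 (Enpep, minus), chr7:79821803-79861059 (Anpep, minus) and chr3:63241537-63386030 (Mme, plus). RefSeq promoter entries of GRCm38.p6 were matched for 7 of the 8 members, with 10 start sites, and not for Agtr1a. The sequence upstream of the start site is shown for 3 members, Ren1, which rose most, Agt, which was not called, and Enpep, whose fall was called in every fit that left out a library. Capitals mark the letters TATAAA, on either strand, and, in Ren1, ATAAATCA, a form of the HOX-PBX element. Only 30 bases around each match are given for Ren1, because GENCODE vM21 places an exon over most of that window, and 250 bases are given for Agt and Enpep, 5′ to 3′ on the strand of the gene.
Ren1, HOX-PBX element, chr1:133350600-133350629, plus strand: gccctggggtaATAAATCAaagcagagcct
Ren1, TATA box, chr1:133350634-133350663, plus strand: tacatggtgtgTATAAAagaaggctcaggg
Agt, chr8:124569707-124569956, minus strand: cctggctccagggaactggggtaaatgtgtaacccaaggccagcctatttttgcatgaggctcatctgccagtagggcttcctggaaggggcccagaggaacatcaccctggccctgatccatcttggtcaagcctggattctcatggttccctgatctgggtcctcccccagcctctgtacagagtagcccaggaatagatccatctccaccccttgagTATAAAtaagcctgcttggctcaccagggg
Enpep, chr3:129332750-129332999, minus strand: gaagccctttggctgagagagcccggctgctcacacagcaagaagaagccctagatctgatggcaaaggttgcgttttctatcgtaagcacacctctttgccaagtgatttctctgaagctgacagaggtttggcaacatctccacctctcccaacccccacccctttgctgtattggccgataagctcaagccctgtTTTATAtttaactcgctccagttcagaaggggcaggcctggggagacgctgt

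Both strands of the 250 bases upstream of every RefSeq start were searched for these letters. The TATA letters began 29 bases upstream of the start in Ren1, 30 in Agt, 31 in Agtr1b and at 1 of the 2 starts of Ace, where the match is on the other strand, and 52 in Enpep, also on the other strand. They stood in 12.3% of the 32536 distinct windows. ATAAATCA (TGATTTAT on the other strand) began 63 bases upstream of Ren1, was in no other member's window and stood in 0.836% of all windows. GTTAAT, searched on both strands as well, is part of the site of the tubular factor HNF1 and was in none of the members' windows and in 6.47% of all windows. These are matches of letters within a window and no more.

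Values are FPKM, in which fragments are divided by transcript length and by library depth, so levels can be compared between genes. Steps in the low values gave depths of 12200000 to 13760000 fragments for WT CL, 20990000 to 22770000 for WT UUO, 14480000 to 16210000 for Acot12-/- CL, and 18320000 to 22050000 for Acot12-/- UUO libraries. Acot12 had 52.7 to 78.1 FPKM in WT CL and 6.80 to 9.15 in Acot12-/- CL libraries, and 9.98 to 21.2 against 1.80 to 3.86 in UUO libraries, so every library went with its label. The libraries carried kidney markers, with proximal tubule markers summing to 3814 to 5175 FPKM in WT CL and 4841 to 7671 in Acot12-/- CL. These sums do not tell cortex from whole kidney. Adrenal cortex markers summed to at most 1.22 FPKM in any library, and Cyp11b2, the aldosterone synthase gene, was listed at 0 in all 12. Acot12-/- CL replicate 2 stood apart. Its deviations from its group followed GC content with a Spearman correlation of −0.784 over 12774 genes, against 0.51 and 0.695 in replicates 1 and 3. It correlated with replicate 3 at only 0.942 on log2(FPKM + 1), so results of the members that rest on it are given with and without it. In bulk cortex, fewer cells of a type and less RNA per cell cannot be told apart.

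Tests were made by limma with log2(FPKM + 1) as the scale. Calls were set at an adjusted p under 0.05, by Benjamini and Hochberg's method over the 13243 genes that were tested. 7 of the 8 members passed the filter on low values, and Agtr1b did not. In WT kidneys 3 of these 7, Agtr1a, Enpep and Anpep, were called lower after UUO and none was called higher, and in the same comparison 47.5% of all tested genes were called, 23.9% lower and 23.6% higher. In Acot12-/- kidneys 6 of 7 were called, with Ren1 higher and Ace, Agtr1a, Enpep, Anpep and Mme lower, beside 53.7% of all genes, 26.6% higher and 27.2% lower. The median log2 difference of the tested members was −0.69 in WT and −0.86 in Acot12-/- kidneys, against 0.01 and −0.01 for all tested genes. Kidneys of the same number in a genotype were taken as those of 1 mouse, and with the mouse as a block 6 of 7 members were called in WT kidneys, with Ren1 higher and Ace and Mme lower in addition, and 6 of 7 in Acot12-/- kidneys.

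Ren1 rose most of the members. Its level was 16.3, 11.2 and 14.04 FPKM in WT CL replicates 1 to 3 and 36.5, 27.2 and 35.2 in WT UUO replicates 1 to 3. In replicates 1 to 3 of Acot12-/- mice it was 4.04, 7.21 and 5.65 FPKM on the CL side against 71.1, 254 and 42.4 on the UUO side. Every UUO library lay above every CL library of its genotype, and replicate 2 of Acot12-/- UUO was the highest of all 12. These levels rest on an estimated 83 to 6373 fragments per library. The UUO kidney held 2.24, 2.42 and 2.51 times the Ren1 level of its partner in the 3 WT mice and 17.6, 35.2 and 7.51 times in the 3 Acot12-/- mice.

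In WT kidneys the log2 difference of Ren1 was 1.197 (SE 0.48, adjusted p 0.0573), which missed the threshold in the fit without the block and passed it with the mouse as a block (adjusted p 0.0205). It was also called when Acot12-/- UUO replicate 2 (adjusted p 0.00198) or replicate 3 (0.0245), whose spread enters the common error, was left out. With every library set to the same total FPKM it was called as well (1.90, adjusted p 0.00459). That scaling moved the median of all genes to 0.62, and relative to this median Ren1 stood at 1.28. In Acot12-/- kidneys the log2 difference in the main fit was 3.83 (SE 0.48, adjusted p 4.32e-05). It was 3.10 without UUO replicate 2, 4.002 without CL replicate 2 and called in all 12 fits that left out a library. C57BL/6 mice carry a single renin gene. Ren2, the second gene of other strains, was listed at 0 to 0.315 FPKM in 11 libraries and at 0.969 in Acot12-/- UUO replicate 2, the library with the most Ren1.

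The Ren1 levels of the genotypes were ordered oppositely on the 2 sides. All 3 Acot12-/- CL libraries lay below all 3 WT CL libraries, and all 3 Acot12-/- UUO libraries lay above all 3 WT UUO libraries. Neither difference was called, with a log2 difference of −1.18 (SE 0.48, unadjusted p 0.0303, adjusted p 0.224) in CL and 1.46 (SE 0.48, unadjusted p 0.0102, adjusted p 1.00) in UUO kidneys. The UUO difference was 0.73 without Acot12-/- UUO replicate 2. The CL difference was called without that same library (adjusted p 0.0224, the difference itself being unchanged) and was −1.35 (adjusted p 0.103) without Acot12-/- CL replicate 2.

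The change of Ren1 with UUO was larger in Acot12-/- than in WT mice by 2.64 on the log2 scale (SE 0.68, unadjusted p 0.00216), but the adjusted p was 0.133, and 0.059 with the mouse as a block. It was called only without Acot12-/- CL replicate 2 (2.80, adjusted p 0.049) and was 1.91 without Acot12-/- UUO replicate 2 (adjusted p 0.135). An exact permutation test of the log2 changes of 3 against 3 mice gave a two-sided p of 0.1, the smallest that this design allows.

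**Figure D1:**
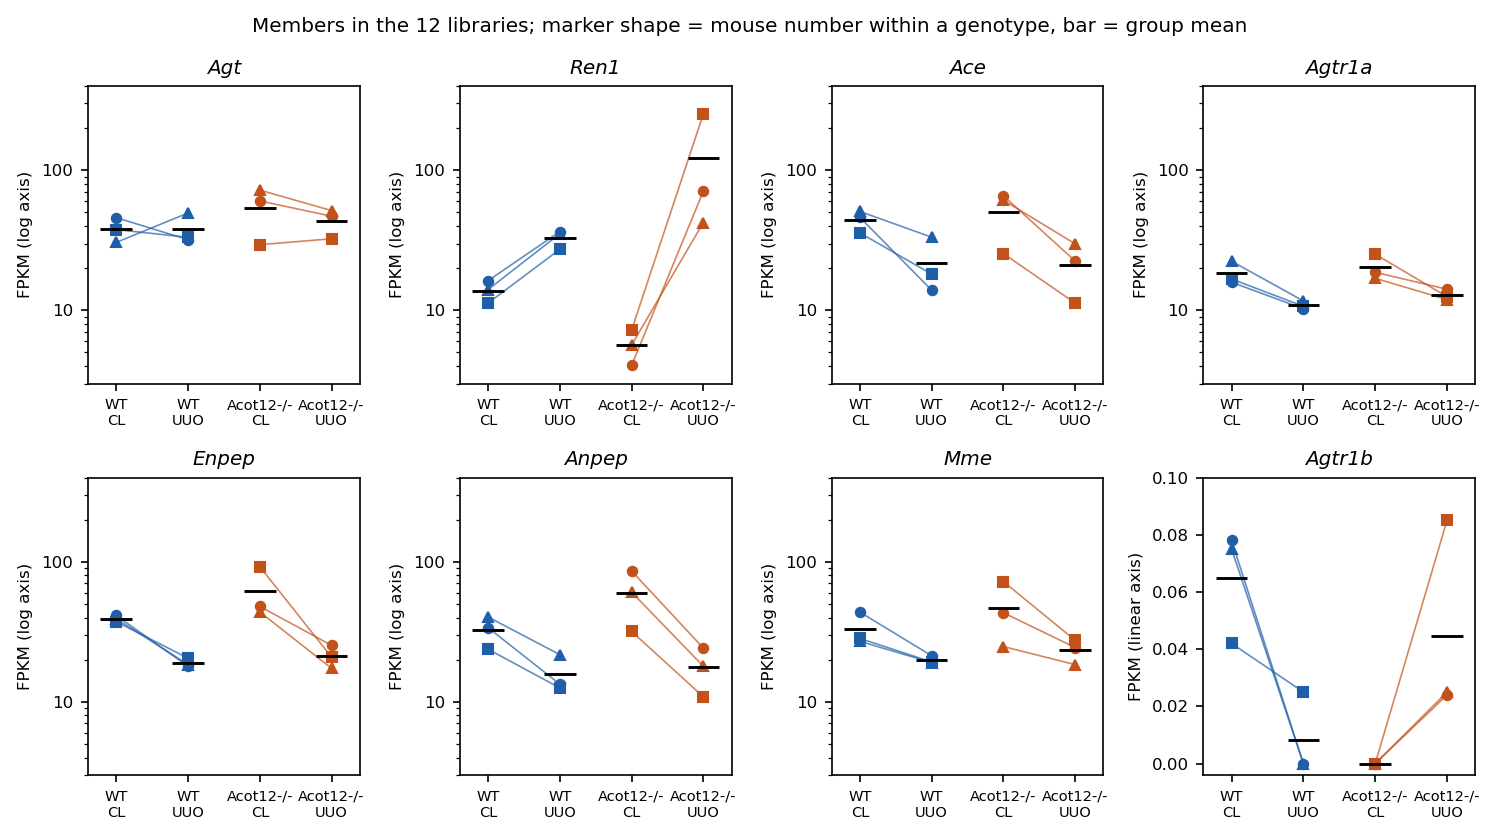
FPKM of the 8 members in the 12 libraries, on a log axis except for Agtr1b (linear axis). Lines join the CL and UUO kidneys of a mouse, marker shapes give the mouse number within a genotype and black bars the group means (n = 3); Ren1 is higher in the UUO kidney of all 6 mice, Ace, Agtr1a, Enpep, Anpep and Mme are lower in all 6, and Agt is lower in 4 of 6.

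Agt, the substrate of renin, showed no called change. Its level was 45.9, 37.7 and 30.5 FPKM in WT CL and 32.0, 33.2 and 49.5 in WT UUO replicates 1 to 3. Acot12-/- mice had 60.5, 29.4 and 72.2 FPKM on the CL side against 47.0, 32.4 and 51.5 on the UUO side (replicates 1 to 3). The groups overlapped on both sides and in both genotypes, and Agt was lower in the UUO kidney of 4 of 6 mice. The log2 difference was −0.0014 in WT (SE 0.31, adjusted p 0.997), and it was −0.23 in the Acot12-/- mice (SE 0.31, adjusted p 0.554). Without Acot12-/- CL replicate 2 the Acot12-/- difference was −0.61 (adjusted p 0.0471), and Agt was then also called higher in Acot12-/- CL than in WT CL kidneys (0.80, adjusted p 0.0402, against 0.42 and 0.566 with it).

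Ace, the converting enzyme, was at 46.2, 35.8 and 50.9 FPKM in WT CL and 13.9, 18.1 and 33.3 in WT UUO replicates 1 to 3. In replicates 1 to 3 of Acot12-/- mice it was at 65.8, 25.4 and 61.2 FPKM on the CL side against 22.5, 11.2 and 29.8 on the UUO side. It was lower in the UUO kidney of all 6 mice, and the WT groups did not overlap, whereas in Acot12-/- kidneys UUO replicate 3 lay above CL replicate 2. The WT difference of −1.07 (SE 0.42) had an adjusted p of 0.053, and of 0.00377 with the mouse as a block. The Acot12-/- difference was −1.21 (SE 0.42, adjusted p 0.0279). It lost its call without Acot12-/- CL replicate 1 (−0.97, adjusted p 0.104), CL replicate 3 (−1.02, 0.0884) or UUO replicate 2 (−0.83, 0.129), and was −1.64 without CL replicate 2.

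Agtr1a, which encodes the main type 1 angiotensin receptor of the mouse kidney, fell in both genotypes. It was at 15.8, 16.7 and 22.4 FPKM in WT CL and 10.3, 10.7 and 11.7 in WT UUO replicates 1 to 3. Acot12-/- mice had 18.7, 25.1 and 16.9 FPKM on the CL side against 14.1, 12.5 and 11.9 on the UUO side (replicates 1 to 3). The CL and UUO libraries did not overlap in either genotype. The log2 difference was −0.69 in WT (SE 0.17, adjusted p 0.00631), and it was −0.60 in the Acot12-/- mice (SE 0.17, adjusted p 0.0113), and both were called in all 12 fits that left out a library.

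Agtr1b, the second type 1 receptor gene, was near the detection limit. Its FPKM corresponded to 2, 1 and 2 fragments in WT CL replicates 1 to 3, 0, 1 and 0 in WT UUO, 0 in each Acot12-/- CL library and 1, 3 and 1 in those of Acot12-/- UUO, which makes 11 fragments in 12 libraries. The highest value was 0.085 FPKM, and a single fragment was worth 0.0228 to 0.0425 FPKM. At a filter of 1 FPKM it was not tested. With no filter the log2 difference was −0.079 in WT kidneys (SE 0.027, adjusted p 0.0429), a call that rests on 5 fragments in WT CL against 1 in WT UUO libraries, and 0.063 in Acot12-/- kidneys (SE 0.027, adjusted p 0.0887). No size of difference can be read from so few fragments. Of the 2098 windows of 50 bases in the longest Agtr1b transcript, 1.57% also occur in Agtr1a, so a few fragments of one could have been counted for the other.

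Enpep, aminopeptidase A, was at 41.4, 37.4 and 39.3 FPKM in WT CL and 18.0, 20.5 and 18.4 in WT UUO replicates 1 to 3. In replicates 1 to 3 of Acot12-/- mice it was at 48.0, 92.4 and 43.8 FPKM on the CL side against 25.3, 20.8 and 17.3 on the UUO side. Within each genotype the highest UUO library was lower than the lowest CL library. The log2 difference was −1.02 in WT (SE 0.24, adjusted p 0.00466), and it was −1.43 in the Acot12-/- mice (SE 0.24, adjusted p 0.000369), and the latter was −1.10 without CL replicate 2, the library with 92.4 FPKM. Both were called in all 12 fits that left out a library.

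Anpep, aminopeptidase N, was at 33.9, 23.8 and 40.4 FPKM in WT CL and 13.4, 12.6 and 21.7 in WT UUO replicates 1 to 3. Acot12-/- mice had 86.0, 31.8 and 60.7 FPKM on the CL side against 24.2, 10.8 and 17.9 on the UUO side (replicates 1 to 3). The UUO libraries lay below the CL libraries without overlap in both genotypes. The WT difference was −1.005 (SE 0.37, adjusted p 0.0406) and lost its call without WT CL replicate 1 (adjusted p 0.101) or 3 (0.135), WT UUO replicate 1 (0.116) or 2 (0.128), or Acot12-/- UUO replicate 3 (0.054). The Acot12-/- difference was −1.66 (SE 0.37, adjusted p 0.00245), called in all 12 such fits. In CL kidneys Anpep was higher in Acot12-/- than in WT mice by 0.77 (SE 0.37, adjusted p 0.319), and by 1.15 without Acot12-/- CL replicate 2 (adjusted p 0.0342).

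Mme, neprilysin, was at 43.8, 28.4 and 27.1 FPKM in WT CL and 21.3, 19.3 and 19.1 in WT UUO replicates 1 to 3. In replicates 1 to 3 of Acot12-/- mice it was at 43.3, 72.3 and 24.8 FPKM on the CL side against 24.4, 27.5 and 18.4 on the UUO side. The WT groups did not overlap, and in Acot12-/- kidneys UUO replicate 2 lay above CL replicate 3. The WT difference of −0.67 (SE 0.32) had an adjusted p of 0.098, and of 0.0225 with the mouse as a block. The Acot12-/- difference of −0.86 (SE 0.32, adjusted p 0.0371) lost its call without Acot12-/- CL replicate 1 (adjusted p 0.0775) or 2 (−0.49, 0.121) or Acot12-/- UUO replicate 1 (0.0659) or 3 (0.128).

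**Figure D2:**
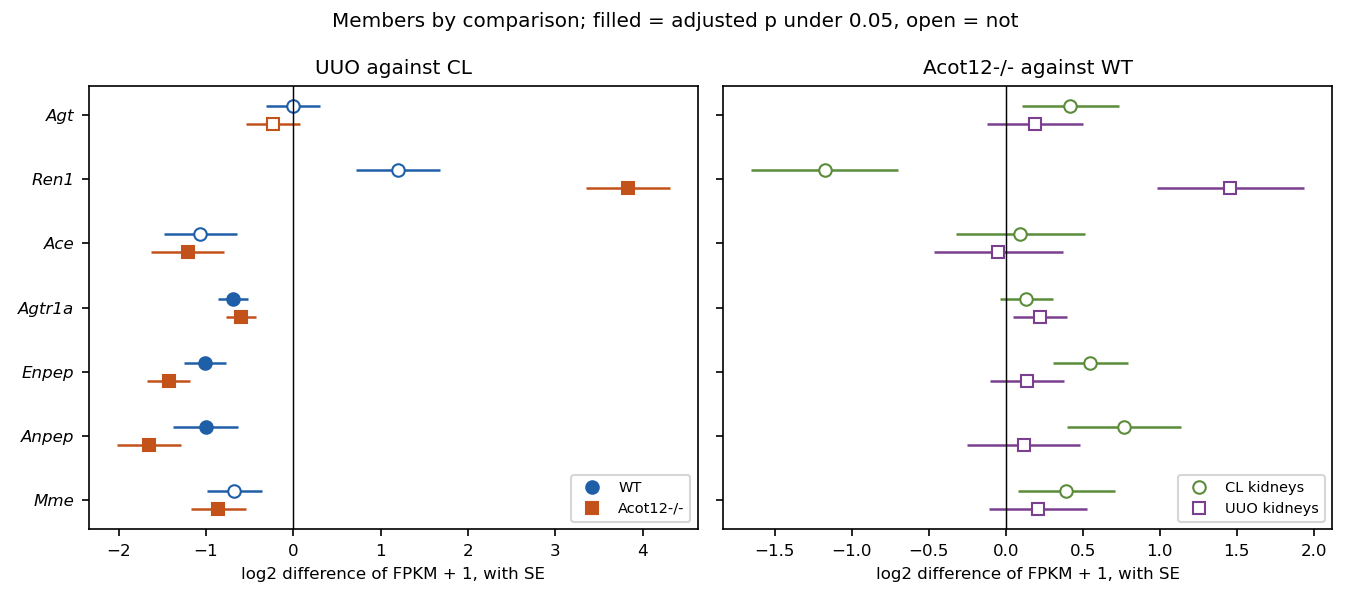
Log2 differences of FPKM + 1 with their SE for the 7 tested members, UUO against CL on the left and Acot12-/- against WT on the right. Filled symbols have an adjusted p under 0.05; Ren1 lies apart from the others at 3.83 in Acot12-/- kidneys on the left, and no symbol on the right is filled.

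Between genotypes 0 of 7 members were called in UUO kidneys by limma (1 at an unadjusted p under 0.05, Ren1), where 0.0151% of all genes were called. In CL kidneys 0 of 7 were called as well (2 at an unadjusted p under 0.05, Ren1 and Enpep), beside 4.48% of all genes. That background of 593 genes became 2917 (22.1%) without Acot12-/- CL replicate 2, where Agt and Anpep were called, 187 without replicate 1 and 1 when only the CL groups were fitted. Enpep was higher in Acot12-/- CL by 0.55 (SE 0.24, unadjusted p 0.0422, adjusted p 0.265), and by 0.22 without CL replicate 2. For the difference between genotypes in the response to UUO 0 of 7 were called (1 at an unadjusted p under 0.05, Ren1), beside 0.106% of all genes, and without Acot12-/- CL replicate 2 only Ren1 was called, beside 6.8% of all genes. Among the other 6 tested members this difference ran from −0.65 (Anpep, SE 0.52) to 0.09 (Agtr1a, SE 0.24). By limma 312 of all 13243 tested genes had an unadjusted p under 0.05 between UUO kidneys, and 2289 between CL kidneys. For the difference in the response to UUO 1389 had.

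The deviations of Acot12-/- CL replicate 2 went with the base composition of most members. Relative to the mean of replicates 1 and 3 it was lower by 1.14, 1.29 and 1.16 on the log2 scale for Agt, Ace and Anpep, whose longest coding transcripts hold 56.3%, 55.6% and 53.3% GC. It was higher by 0.995, 1.12 and 0.48 for Enpep, Mme and Agtr1a, at 45.5%, 38.0% and 46.5% GC, and Ren1, at 54.6% GC, was higher by 0.51. With every library corrected for GC content, an alternative chosen after the values had been seen, the UUO differences of the 6 members called in Acot12-/- kidneys were all called, Ren1 at 3.71 and Mme at −0.63, and Ace was called in WT kidneys (−1.24, adjusted p 0.0109).

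The order of the members' levels changed with UUO. In WT CL kidneys Ace (44.3 ± 7.7 FPKM, SD, n = 3), Enpep (39.3 ± 2.0), Agt (38.0 ± 7.7), Mme (33.1 ± 9.3) and Anpep (32.7 ± 8.4) led, and neighbours in this order overlapped. Agtr1a (18.3 ± 3.6) lay below Anpep without overlap and overlapped Ren1 (13.8 ± 2.5). In WT UUO kidneys Agt (38.2 ± 9.8) and Ren1 (33.0 ± 5.0) led, with overlap, and Agtr1a (10.9 ± 0.7) was the lowest tested member. In Acot12-/- CL kidneys Ren1 (5.6 ± 1.6) was the lowest tested member, below Agtr1a (20.2 ± 4.3) without overlap, and in Acot12-/- UUO kidneys it had the highest mean (122 ± 115), overlapping Agt (43.6 ± 9.98). Agtr1b was below every other member in each group.

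A list of 27 other genes of the pathway, written from general knowledge, had 19 tested members. In WT kidneys 3 were called higher and 5 lower after UUO (median −0.08), and in Acot12-/- kidneys 3 higher and 10 lower (median −0.41). Over all tested genes 23.6% were called higher and 23.9% lower in WT, and 26.6% and 27.2% in Acot12-/- kidneys. In WT kidneys the 19 were thus not called more often than genes at large. The largest falls in WT kidneys were those of Klk1, the tissue kallikrein that releases kinins (−4.19, adjusted p 3.41e-06), Kng2, a kininogen (−1.34, 0.00156), and Rnpepl1, an aminopeptidase (−1.04, 0.034). Klk1 went from 4408, 4207 and 3005 FPKM in WT CL to 261, 200.5 and 172 in WT UUO replicates 1 to 3. The 3 called rises were those of the arrestins Arrb2 (1.25, adjusted p 0.000231) and Arrb1 (0.60, 0.0146), which quench and redirect receptor signals, and of Prep, a prolyl endopeptidase that can form a vasodilator angiotensin fragment (0.73, 0.00244). Prep differed by 0.07 in Acot12-/- kidneys (adjusted p 0.733). For the difference between genotypes in the response to UUO, 0 of the 19 were called, which include Atp6ap2, Prcp, Lnpep and Nr3c2 below.

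Atp6ap2, the renin receptor and proton pump subunit, fell by 0.86 in WT (adjusted p 0.00593) and by 0.74 in Acot12-/- kidneys (0.0113). Its log2 changes in Acot12-/- mice 1 to 3 were −0.62, −1.41 and −0.20, the largest in the mouse of CL replicate 2. Prcp, a carboxypeptidase of angiotensin II, fell by 0.56 (0.00582) and 0.92 (0.00017).

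Lnpep, the angiotensin IV binding aminopeptidase, differed by −0.22 in WT (adjusted p 0.527) and −0.74 in Acot12-/- kidneys (0.0345). Its log2 changes in Acot12-/- mice 1 to 3 were −0.89, −1.06 and −0.27, again the largest in the mouse of CL replicate 2. Nr3c2, the mineralocorticoid receptor on which the aldosterone arm of the system ends, differed by −0.32 (0.267) and −0.65 (0.0301). Agtr2, the type 2 receptor, did not pass the filter and rested on at most 28 estimated fragments, in Acot12-/- UUO replicate 3 (0.437 FPKM). Mas1, a receptor for vasodilator angiotensin fragments, did not pass it either, and was at 0.998, 0.936 and 1.95 FPKM in WT CL against 0.019, 0.189 and 0.498 in WT UUO replicates 1 to 3. In replicates 1 to 3 of Acot12-/- mice Mas1 was at 0.655, 0.401 and 0.63 FPKM on the CL side against 0, 0.072 and 0.172 on the UUO side, so its CL libraries lay above its UUO libraries in Acot12-/- mice and in WT mice.

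Other brush border peptidases and hydrolases fell alongside Enpep and Anpep. Of 16 listed genes 13 were tested, and all 13 had negative differences in both genotypes. In WT kidneys 9 were called lower (median −1.27), beside 23.9% of all tested genes, and in Acot12-/- kidneys 13 (median −1.73), beside 27.2%. Falls were largest for the meprin subunit Mep1b (−3.93 in WT, adjusted p 0.00104), the collectrin gene Tmem27 (−2.68, 4.06e-05) and the meprin subunit Mep1a (−2.05, 9.95e-05). In WT kidneys the dipeptidase Dpep1 fell by 2.03 (0.000287), the glutathione-cleaving Ggt1 by 1.77 (0.00907) and the kinin-cleaving Xpnpep2 by 0.73 (0.0169). Dpp4 differed by −0.39 (0.123) in WT and fell by 0.90 (0.00241) in Acot12-/- kidneys. Its log2 changes in Acot12-/- mice 1 to 3 were −0.61, −1.36 and −0.72, the largest in the mouse of CL replicate 2. For the difference between genotypes in the response to UUO, 0 of the 13 were called. Xpnpep2 was the only gene of the 13 called between genotypes in CL kidneys, at 6.13, 3.87 and 4.36 FPKM in Acot12-/- against 1.74, 1.66 and 1.52 in WT replicates 1 to 3 (1.12, SE 0.22, adjusted p 0.0161). The call was lost without any 1 of the WT CL libraries (adjusted p 0.0536 to 0.059), without Acot12-/- CL replicate 1 (0.0733), with a pseudocount of 0.1 (0.0776) and with only the CL groups fitted (0.0743).

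**Figure D3:**
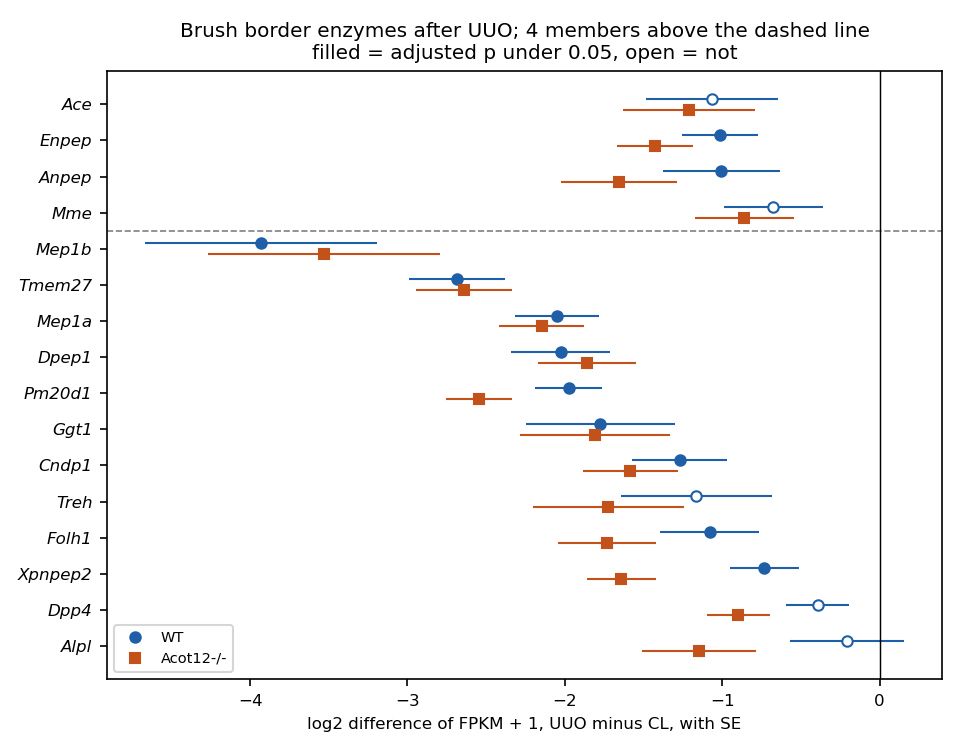
Log2 differences of FPKM + 1, UUO minus CL with SE, for 4 members (above the dashed line) and 12 of the 13 other tested brush border genes, circles for WT and squares for Acot12-/- mice. Filled symbols have an adjusted p under 0.05; all points lie below 0, from Mep1b at −3.93 in WT to Alpl at −0.21 in WT.

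Proximal tubule markers moved on the same side as these peptidases. Leaving out Kap, which is listed at 0 in 3 libraries although it reaches 189588 FPKM, the 14 tested markers summed to 3814 to 5175 FPKM in WT CL against 582 to 1225 in WT UUO, and 4841 to 7671 against 376 to 1539 in Acot12-/- mice. 13 of these 14 were called lower in WT and 14 of 14 in Acot12-/- kidneys, and 7 of 7 markers of injured tubules were called higher in both. Over all tested genes 23.9% were called lower and 23.6% higher in WT, and 27.2% and 26.6% in Acot12-/- kidneys. Of 6 distal nephron markers 6 were called lower in WT and 5 in Acot12-/- kidneys. The part of tubule content in the falls of Ace, Enpep, Anpep, Mme and Klk1 was not tested.

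The scaling of the libraries bears on these directions. With every library set to the same total FPKM the median of all genes moved to 0.62 in WT and 0.46 in Acot12-/- kidneys, and 7645 genes were then called higher and 1040 lower in WT, against 3129 and 3161 in the fit used here. Under that scaling Ren1 (1.90, adjusted p 0.00459) and Agt (0.72, 0.0335) were called higher in WT UUO kidneys, Mme turned to 0.03, and Enpep (−0.31), Anpep (−0.31) and Agtr1a (−0.01) lost their calls in WT kidneys. Relative to the shifted median, the WT differences were 1.28 for Ren1, 0.09 for Agt, −0.98 for Ace, −0.63 for Agtr1a, −0.93 for Enpep, −0.93 for Anpep and −0.59 for Mme. In Acot12-/- kidneys Ace (−0.68, adjusted p 0.123), Agtr1a (−0.08, 0.762) and Mme (−0.33, 0.432) lost their calls under equal totals, and Ren1 (4.33), Enpep (−0.90) and Anpep (−1.13) were called. The other brush border genes had 10 of 13 differences below 0 and 6 called lower in WT, and 13 of 13 below 0 and 10 called lower in Acot12-/- kidneys. The other genes of the pathway turned, with 11 called higher and 2 lower in WT and 8 higher and 2 lower in Acot12-/- kidneys. Over all genes in Acot12-/- kidneys 6295 were then called higher and 1545 lower.

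The samples entering the fit also bore on the calls. With only the 2 Acot12-/- groups fitted, Ace (adjusted p 0.0561), Agtr1a (0.0545) and Mme (0.0952) missed the threshold, and with only the 2 WT groups fitted Ren1 (0.000514), Ace (0.015) and Mme (0.0122) passed it. Without the filter on low values Anpep in WT (0.0653) and Mme in Acot12-/- kidneys (0.0568) missed it, and Agtr1b was called in WT kidneys (0.0429).

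Genes of juxtaglomerular and mural cells were read beside Ren1. Of 17 listed genes 15 were tested, with 7 called higher and 3 lower in WT UUO kidneys and 10 higher and 1 lower in Acot12-/- UUO kidneys. Over all tested genes 23.6% were called higher and 23.9% lower in WT, and 26.6% and 27.2% in Acot12-/- kidneys. For the difference between genotypes in the response to UUO, 0 of the 15 were called. By limma 7 of the 15 had an unadjusted p under 0.05 for it, beside 1389 of all 13243 tested genes. So had 7 of 8 endothelial markers (1 called), 4 of 7 macrophage and 4 of 7 fibroblast markers. Of the proximal tubule, injured tubule and podocyte markers 0 had. At equal totals 16 of the list were tested, with 11 called higher in WT and 14 in Acot12-/- kidneys, and the 3 falls in WT kidneys lost their calls. Of all 13479 genes tested at equal totals, 7645 were called higher in WT and 6295 in Acot12-/- kidneys. In WT kidneys the contractile genes Tagln (1.44, adjusted p 0.000105) and Acta2 (1.42, 0.000496) and the pericyte receptor Pdgfrb (1.14, 0.000402) rose most, and Kcnj8 (−0.65, 0.011) and Abcc9 (−0.63, 0.00655), which form a potassium channel of mural cells, and the connexin gene Gja4 (−0.46, 0.0269) fell. Fibroblast markers rose beside them, 4 of 7 called higher in WT and 7 of 7 in Acot12-/- kidneys, as did macrophage markers, 6 of 7 and 7 of 7. The mural list summed to 105 to 125 FPKM in WT CL, 232 to 267 in WT UUO, 51.7 to 69.9 on the CL side of Acot12-/- mice and 203 to 256 on their UUO side.

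In CL kidneys, where every Acot12-/- library had less Ren1 than every WT library, 4 of the 15 passed the test, all lower in Acot12-/- mice, namely Tagln (−1.53, adjusted p 0.00275), Des (−1.12, 0.0136), Pdgfrb (−1.11, 0.00894) and Notch3 (−0.54, 0.0437). Endothelial markers went the same way, with 6 of 8 called lower and sums of 49.2 to 73.6 against 139 to 230 FPKM. So did macrophage markers, with 3 of 7 called lower and sums of 48.7 to 101.6 against 130 to 151 FPKM, and fibroblast markers, with 1 of 7 called, 7 of 7 below 0 and sums of 33.9 to 99.04 against 123.25 to 155 FPKM. With only the CL groups fitted, none of these calls was left by limma, and 7 of 15 mural, 8 of 8 endothelial, 4 of 7 macrophage and 5 of 7 fibroblast genes had an unadjusted p under 0.05. In that fit 1582 of all 13243 tested genes had an unadjusted p under 0.05, and 1 was called. Without Acot12-/- CL replicate 2 the calls were 6 of 15, 8 of 8, 5 of 7 and 7 of 7, all lower. Over all tested genes 4.48% were called in either direction in the main fit, and 22.1% without that library. With each library left out, Tagln and Pdgfrb were called in all 12 fits, Des was not called without WT CL replicate 3 or Acot12-/- CL replicate 1, and Notch3 was not called in 10 of 12, nor with the GC correction (adjusted p 0.317). The part of cell content in the Ren1 difference between CL kidneys was not tested. Des and Notch3 are named here after their values were seen.

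Akr1b7, an aldo-keto reductase that marks renin cells, was among the 3 tested genes most like Ren1. It was at 2.57, 2.00 and 3.33 FPKM in WT CL and 8.88, 3.69 and 3.96 in WT UUO replicates 1 to 3. Acot12-/- mice had 0.263, 2.11 and 1.34 FPKM on the CL side against 7.57, 26.5 and 4.80 on the UUO side (replicates 1 to 3). UUO libraries lay above CL libraries in both genotypes, and the highest value was in the library with the most Ren1. The log2 difference was 0.77 in WT (SE 0.51, adjusted p 0.231), and it was 2.41 in the Acot12-/- mice (SE 0.51, adjusted p 0.00172). The difference between genotypes in this response was not called for Akr1b7. Ptgs2, the prostaglandin synthase of the macula densa, did not pass the filter. It was at 0.267, 0.041 and 0.11 FPKM in WT CL against 0.646, 0.324 and 0.963 in WT UUO, and at 0.051, 0.107 and 0.031 in Acot12-/- CL against 1.44, 3.17 and 0.862 in Acot12-/- UUO replicates 1 to 3. Its UUO libraries lay above its CL libraries in both genotypes, and WT UUO replicate 3 lay above Acot12-/- UUO replicate 3. Nos1, another gene of the juxtaglomerular and mural list, did not pass the filter either and was lower in the UUO kidney of 4 of 6 mice. It was at 0.118, 0.043 and 0.092 FPKM in WT CL and 0.064, 0.059 and 0.024 in WT UUO replicates 1 to 3. In Acot12-/- mice it was at 0.099, 0.119 and 0.065 FPKM on the CL side against 0.077, 0.12 and 0.051. Ptgs2 and Nos1 were not among the genes fixed by name.

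**Figure D4:**
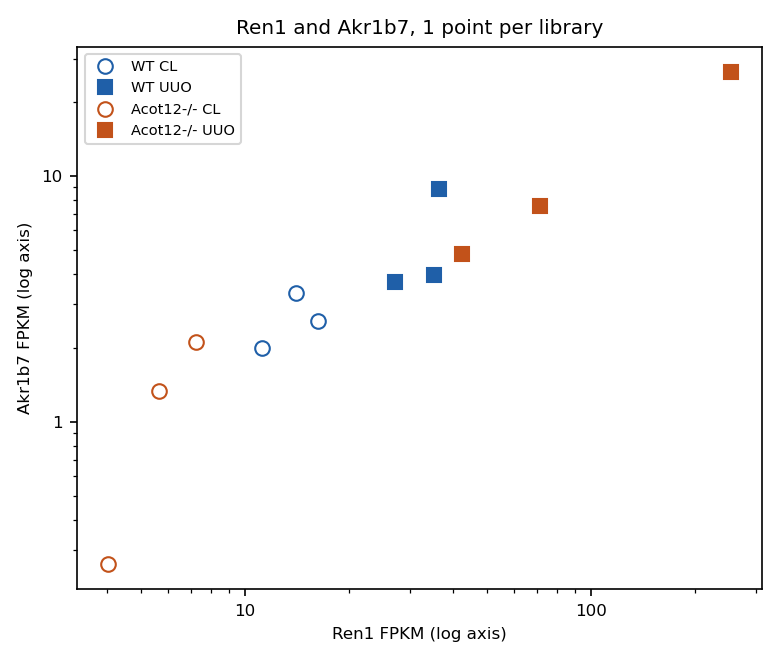
Ren1 against Akr1b7 in FPKM, both on log axes, with 1 point per library, open circles for CL and filled squares for UUO, blue for WT and orange for Acot12-/- mice. Acot12-/- CL libraries lie at the lower left and Acot12-/- UUO replicate 2 (254 and 26.5 FPKM) at the upper right.

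Likeness was measured by Pearson's r of log2(FPKM + 1) over the 12 libraries, which share the contrast of UUO with CL and the composition of each library, and is given as a description. For Ren1 the closest genes were Clec4d (0.960), Fbln2 (0.959) and Akr1b7 (0.956). Agt was closest to Gstm4 (0.900), Aldoa and Steap3, at lower values than those of the closest genes of any other tested member. Ace was closest to Slco3a1 (0.983), Ggt1 (0.979) and Notum (0.978), and Agtr1a to Fam149a (0.965), Dars and Rasa2. Enpep was closest to Eif2s3x (0.991), Evi5 and Spc25, Anpep to Tkfc (0.989), Glb1 and Acp6, and Mme to Etnk1 (0.969), Lmo7 and Pdzd8.

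Among the 6 tested members other than Ren1 the deviations from group means fell into 2 sets. Ace, Anpep and Agt deviated together, with r of 0.883 (Ace and Anpep), 0.85 (Ace and Agt) and 0.721 (Anpep and Agt), as did Enpep and Mme (0.803) and Enpep and Agtr1a (0.719). Across the sets the values were negative, for example −0.708 for Agt and Enpep and −0.61 for Ace and Mme. Of these 6 the first set holds the members with the higher GC content, and Acot12-/- CL replicate 2, described above, enters all of these values. Ren1, at 54.6% GC, did not go with that set. Its r was −0.625 with Ace, −0.471 with Anpep and −0.462 with Agt, against 0.418 with Mme, 0.266 with Enpep and 0.127 with Agtr1a. Over the 12 libraries as they stand, r was 0.909 for Ace and Anpep and 0.892 for Enpep and Mme.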

How the data were processed

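RNA of the 12 kidney cortex libraries (directional kit) was sequenced, and the authors had a company trim, map and normalize the reads. Per the labels the genome build was mm10 and edgeR was used, with no version; the aligner is not given in the sources used here. The deposited values are FPKM, read as that unit from steps in the low values, since the files name none; the same steps gave the depths. Kidney side and genotype were taken from the labels, which do not say that replicates are separate mice, so p measures the spread between these libraries. Genes at 1 FPKM or more in at least 3 libraries were tested, leaving out 28 with a 0 in a library and 10 FPKM or more in another of the same group. R 4.3.3 with limma 3.58.1 was used on log2(FPKM + 1), with the 4 groups in 1 model and eBayes with a variance trend, and p was adjusted by Benjamini-Hochberg. Differences on this scale understate changes of low genes. The plan had allowed for counts, but a count model was not run on FPKM. In a test on simulated data with 13243 genes, of which 200 were changed in WT UUO, 65% of changes of log2 1 and 93% of log2 2 were called, with 10 false calls. Noise was drawn independently for each library there. In these data 6290 genes were called in WT after UUO and 2 between the UUO kidneys of the genotypes, so these rates need not hold for either comparison.

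Kidneys of the same number were correlated, over genes, in their deviations from the group means (0.134, 0.364 and 0.335 in WT, 0.322, 0.186 and 0.318 in Acot12-/-). Kidneys of different numbers had lower values, −0.363 to 0.0496, except WT CL 2 with WT UUO 1 (0.139), which lay above WT pair 1. Deviations within a group of 3 sum to 0, so a positive value for 1 pair lowers the others. The values of kidneys of different numbers are thus no separate evidence of pairing. The control is the other kidney of the same mouse, so the numbers were taken to pair kidneys and the mouse was tried as a block. The labels do not state this pairing. The other alternatives were a pseudocount of 0.1, no filter, median-ratio size factors, equal totals, eBayes without the trend, fits of only the groups compared, the 28 genes kept, each library left out and a GC correction. GC content was matched for 96.4% of tested genes. Numbers of fragments are estimates and cover counting error only. Named genes were the members, other genes of the pathway fixed by name (1 of which is not reported here), the 3 largest called rises and falls of each pathway list in WT kidneys, and the 3 genes most like each member. The members and lists were chosen with earlier results of these data known. Positions come from GENCODE vM21 and promoter sequences from RefSeq.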

Additional observations from a re-analysis of the deposited data

Results flagged for a closer look

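Ren1 was singled out because all Acot12-/- libraries lay below all WT libraries in CL kidneys and above them in UUO kidneys. Only the members and some of the genes fixed by name were looked at for this order, which is not particular to Ren1. Gja4 of the mural list had it, at 1.31 to 2.29 FPKM in Acot12-/- against 2.44 to 2.67 in WT CL libraries. In UUO libraries Gja4 was at 1.95 to 2.84 against 1.285 to 1.77. The endothelial marker Tie1 had the same order. The difference between genotypes in the change of Ren1 with UUO was 2.64 on the log2 scale (SE 0.68, limma adjusted p 0.133), which missed the threshold. Agtr1b was singled out because its FPKM went down with UUO in each of the 3 WT mice and up in each of the 3 Acot12-/- mice. The mean difference was 0.141 in log2(FPKM + 1). In WT mouse 2 each kidney had 1 estimated fragment, and its lower FPKM after UUO came from a deeper library (20990000 against 12200000 fragments). Agtr1b did not pass the filter on low values. Tested without that filter, the difference had an adjusted p of 0.2 by limma, and it rests on 0 to 3 fragments per library.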

How the results depend on the processing

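Of 728 recomputed log2 differences of single members, 657 kept their direction and their side of the threshold, 23 lost a call, 21 gained a call and 27 changed sign, none of them with a call before and after. The number of members called in WT kidneys was 3 and became 6 with the replicate block and 6 when the 2 groups compared were fitted alone, and it was 3 without the filter on low values as well, with Agtr1b in place of Anpep, and 2 to 5 when each library was left out in turn. In Acot12-/- kidneys it was 6 and became 3 when those groups were fitted alone and 3 at equal totals, and 4 to 6 with each library left out. Between genotypes it was 0 and became 0 to 2 in CL kidneys with each library left out, and 0 to 1 for the difference in the response to UUO. The block, with kidneys paired by mouse, changed no other call of a member.

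Of the signs that changed, 1 belonged to a UUO difference beyond 0.5 on the log2 scale, that of Mme in WT kidneys (−0.67). At equal totals Agt turned to 0.72 in WT and 0.30 in Acot12-/- kidneys, Mme to 0.032 in WT kidneys, Enpep to −0.028 and Anpep to −0.047 between UUO kidneys of the genotypes, and the genotype difference in response of Agtr1a to −0.079. With each library left out, Agt ran from −0.20 to 0.14 in WT and from −0.61 to 0.020 in Acot12-/- kidneys, and its difference in response from −0.61 to 0.021. Ace ran from −0.15 to 0.52 between CL and from −0.34 to 0.33 between UUO kidneys of the genotypes, and from −0.57 to 0.23 for the difference in response. Agtr1a ran from −0.027 to 0.28 between CL kidneys and from −0.057 to 0.25 for the difference in response, Anpep from −0.13 to 0.41 between UUO kidneys and Mme from −0.56 to 0.19 for the difference in response. The causes were not tested. With 3 libraries a group, differences of about 1 on the log2 scale can be missed, at a rate not known for these comparisons, and Agtr1b, Agtr2 and Mas1 are limited by depth.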
